A study of Mus musculus with 12 samples.

Results

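Heat shock and chaperonin genes were followed across the cell classes of the superior mesenteric ganglion (SMG), the sympathetic ganglion in which Th-MYCN mice form their tumors. The members were chosen by gene symbol alone, and all 10 were found among the 32289 features of the deposited tables. They comprise 6 heat-inducible genes (Hspa1a, Hspa1b, Dnajb1, Hsph1, Hsp90aa1 and Hspb1), 2 constitutive ones (Hsp90ab1 and Hspa8) and the mitochondrial chaperonin pair Hspd1 and Hspe1. The data are droplet scRNA-seq of whole ganglia with 3′ capture (Chromium v1 chemistry), and the unit throughout is the UMI, a molecular barcode that lets each captured transcript be counted once. The mice, all of the 129+Ter/SvJcl strain, were 1 wild-type (WT) mouse at 3 weeks, 10 hemizygous Th-MYCN+/- mice at 3 weeks (samples #1 to #10) and 1 Th-MYCN+/- mouse at 6 weeks. The transgene is human MYCN driven by the rat tyrosine hydroxylase promoter, so it is directed to catecholaminergic cells. The 6-week ganglion had been picked for a visible tumor, and with 1 mouse each the WT and 6-week groups have no replicate error, so no test was made across groups. All tissues shared an enzymatic dissociation at 37 °C for 40 min before capture, and levels at capture cannot be told apart from levels in the intact ganglion.

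Heat shock proteins are molecular chaperones. Proteins of the HSP70 family (Hspa1a, Hspa1b and Hspa8) bind unfolded stretches of client proteins with the help of J-domain proteins such as Dnajb1, which drive their ATPase cycle, and of nucleotide exchange factors such as Hsph1. HSP90 (Hsp90aa1 and Hsp90ab1) acts later on kinases, steroid receptors and other clients, Hspb1 is a small heat shock protein that holds unfolded proteins without ATP, and Hspd1 with its lid Hspe1 forms the folding chamber of the mitochondrial matrix. On stress, the transcription factor HSF1 binds inverted repeats of the unit nGAAn, the heat shock element, upstream of the inducible genes, whereas Hspa8 and Hsp90ab1 are made by most cells at all times.

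The libraries of the 3-week Th-MYCN+/- mice held between 1444554 and 6388766 UMIs. In all, 12017 cells were kept and grouped into 16 clusters without use of the members, of 92 other chaperone and co-chaperone genes or of immediate early genes, so that the members played no part in the classes compared below. Clusters were given the names of neuroblast-like (5268 cells), Schwann-like (2915), ganglion-like (2704), endothelial-like (512), macrophage-like (191), myofibroblast-like (166) and fibroblast-like cells (141), and 120 cells stayed unnamed. Sample #2 stood apart, with 38.7% of its UMIs in cells against 74.1% to 87.1% in the other 3-week Th-MYCN+/- libraries, 1508 ganglion-like but only 12 Schwann-like cells, and no myofibroblast-like cell. The 45 WT cells that fell among the neuroblast-like clusters went against that name, with a summed level of ganglion markers of 37836 UMIs per 1000000 UMIs (CPM) and of neuroblast markers of 3480 CPM, against 20848 to 27912 CPM of neuroblast markers in the 3-week Th-MYCN+/- mice, and no WT neuroblast level is given. The 66 pairs of libraries shared between 0 and 6 cell barcodes each, 95 in all, where 88.7 were expected from random draws.

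The sequences upstream of the members differed in how they carry heat shock elements. RefSeq upstream windows (GRCm38.p6) were at hand for 7 of the 10 members (not Hsp90aa1, Hsp90ab1 or Hspa8), and the 250 bases before each transcription start were searched on both strands for GAANNTTC and TTCNNGAA, which each join a pair of units. GAANNTTC is present in 6.69% and TTCNNGAA in 7.17% of 32851 such windows in the table, and a run of 3 units, in which the motifs overlap by 1 unit, in 153 of them. A match describes the letters only and is no evidence of binding. The windows of Hspa1a and Hspb1, the inducible genes with the largest tested differences between classes, and of Hspa1b, the neighbour of Hspa1a, are shown with matches in capitals, and overlap no annotated exon:
Hspa1a (chr17:34972157-34972406, minus strand): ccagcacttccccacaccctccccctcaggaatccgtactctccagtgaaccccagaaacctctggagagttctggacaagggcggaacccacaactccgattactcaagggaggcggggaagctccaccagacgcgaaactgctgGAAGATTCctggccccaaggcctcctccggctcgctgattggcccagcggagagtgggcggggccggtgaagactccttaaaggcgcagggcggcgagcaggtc
Hspa1b (chr17:34959239-34959488, minus strand): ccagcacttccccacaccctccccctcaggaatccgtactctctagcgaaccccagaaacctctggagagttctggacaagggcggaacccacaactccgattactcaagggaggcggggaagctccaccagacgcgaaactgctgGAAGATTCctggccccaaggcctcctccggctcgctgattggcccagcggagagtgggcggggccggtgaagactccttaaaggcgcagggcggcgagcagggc
Hspb1 (chr5:135887669-135887918, plus strand): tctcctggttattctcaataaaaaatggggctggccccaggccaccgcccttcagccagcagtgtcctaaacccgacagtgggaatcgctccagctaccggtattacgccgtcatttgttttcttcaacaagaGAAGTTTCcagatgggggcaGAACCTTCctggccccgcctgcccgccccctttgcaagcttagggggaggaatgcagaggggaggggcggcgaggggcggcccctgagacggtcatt
Shorter stretches are shown for Hsph1 and for the chaperonin pair, since both lie against annotated first exons:
Hsph1 (chr5:149636351-149636380, minus strand): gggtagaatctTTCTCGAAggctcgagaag
Hspe1 (chr1:55088053-55088082, plus strand): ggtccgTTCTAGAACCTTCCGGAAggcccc
Hspd1 (the same bases, minus strand): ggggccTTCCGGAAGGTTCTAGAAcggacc

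Hspa1a and Hspa1b, neighbours on chromosome 17 that lie 9951 bases apart (GRCm38, 34969190 to 34972156 and 34956436 to 34959238, both on the minus strand), had nearly the same upstream window. Of its 250 bases 247 were the same, with the substitutions C44T, T47C and T249G from Hspa1a to Hspa1b, counted from 1 at the 5′ end of the window. Both held 1 match, GAAGATTC, that begins 104 bases before the start. Hspb1 held 2, beginning 117 and 97 bases before its start. Hspd1 and Hspe1 lie head to head on chromosome 1 with annotated extents that overlap by 112 bases, and RefSeq lists 2 starts of Hspd1. The stretch between the start of Hspe1 and the second start of Hspd1 held 3 overlapping matches, which make a run of 4 units, whereas the window of the first start of Hspd1 held no match. The windows of both annotated starts of Dnajb1 held no match.

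Hspa1a, the stress-inducible HSP70, was high in the Schwann-like class and low in the neuroblast-like one. In Schwann-like cells of the 10 3-week Th-MYCN+/- mice it stood at 1086 ± 607 CPM (SD, n = 10), with 99.1 CPM as the lowest value, a median of 1079 and 2023 as the highest. In neuroblast-like cells it stood at 20.3 ± 32.8 CPM, between 1.13 and 94.1 with a median of 5.54. The ranges of these classes did not overlap, and Schwann-like cells were higher in 10 of 10 mice. In ganglion-like cells the level was 34.3 ± 15.96 CPM, between 0 and 54.8, which also lay below every Schwann-like value. The class sums of neuroblast-like cells rested on few cells: in sample #7, which had the highest value, 56 of 57 UMIs came from 1 cell, and without that cell the level there was 1.67 CPM. Sample #2 came next with 68.1 CPM, from 9 UMIs in 9 cells.

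**Figure D1:**
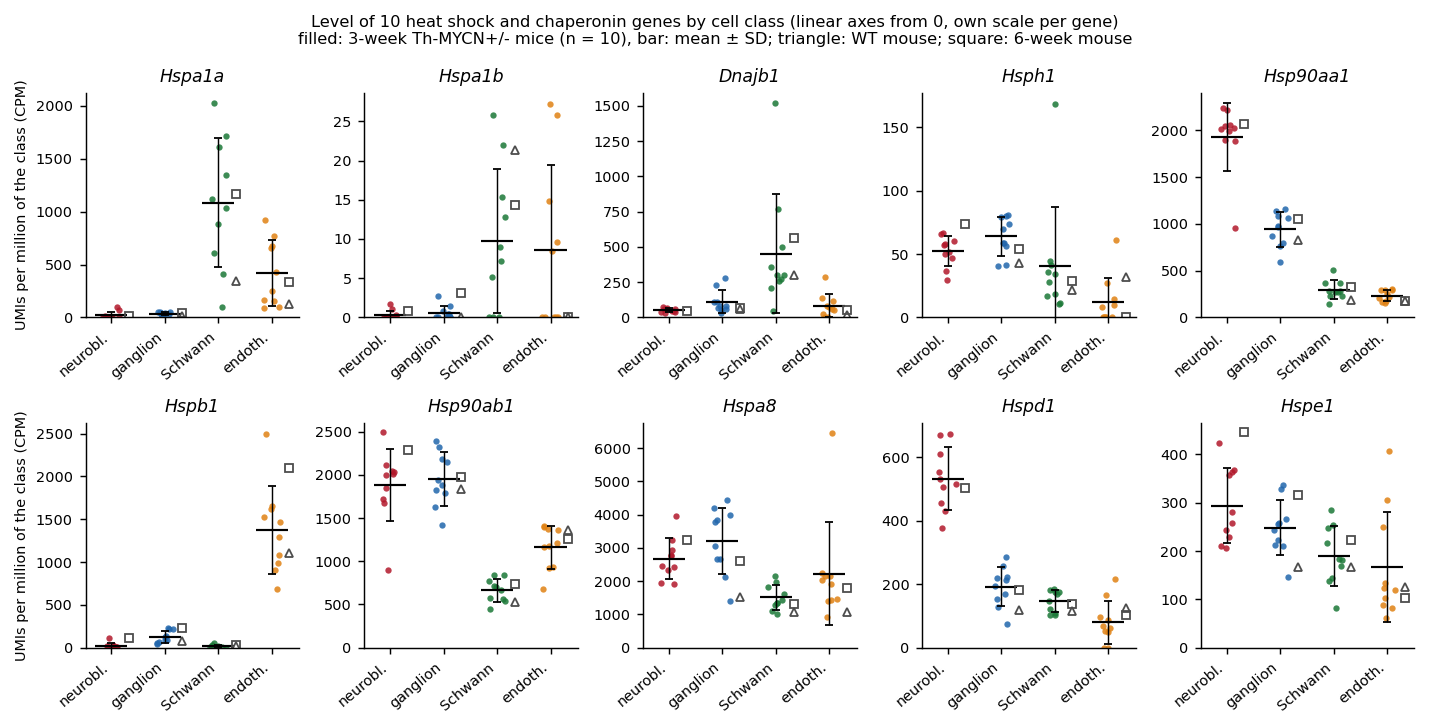
Level of each of the 10 members in UMIs per 1000000 UMIs of the class (CPM, linear axes from 0, own scale per gene) in neuroblast-, ganglion-, Schwann- and endothelial-like cells. Filled points are the 10 3-week Th-MYCN+/- mice with mean ± SD, triangles the WT and squares the 6-week mouse (no WT point among neuroblast-like cells). Hspa1a and Dnajb1 are highest in Schwann-like, Hspb1 in endothelial-like and Hsp90aa1 and Hspd1 in neuroblast-like cells.

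Outside the neural classes, Hspa1a was also abundant in macrophage-like (868 ± 765 CPM, n = 10), myofibroblast-like (831 ± 581, n = 9) and endothelial-like cells (421 ± 313, n = 10). Endothelial-like cells ranged from 86.4 CPM through a median of 340.2 to 924 CPM, and all 10 exceeded the ganglion-like values. Schwann-like cells were higher than macrophage-like cells in 6 of 10 mice and than myofibroblast-like cells in 5 of 9, with overlapping ranges, so the order of these 3 classes was not resolved. Macrophage-like cells held Schwann markers at a summed median of 60638 CPM (41092 to 117795), against 127569 in Schwann-like cells. Their macrophage markers summed to a median of 78856 CPM. The part of Schwann-like transcripts in the macrophage-like Hspa1a level was not tested. Fibroblast-like cells held 122 ± 212 CPM, with no UMI in 5 of 10 mice and 10 of the 15 UMIs from 1 cell of sample #4. These small classes rest on 15 to 228 Hspa1a UMIs in all 10 mice together.

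The contrast was also seen per cell at equal depth. After each cell was thinned to 500 UMIs, 413 of 1820 Schwann-like cells of the 3-week Th-MYCN+/- mice had an Hspa1a UMI (22.7%, exact 95% interval 20.8% to 24.7%) against 16 of 3718 neuroblast-like cells (0.430%, 0.246% to 0.698%). Ganglion-like cells had one in 2.00% and endothelial-like cells in 13.9% of cases. Before thinning the shares were 28.7%, 1.09%, 6.84% and 24.2%, at median depths of 970, 2568, 1152 and 1146 UMIs. Shallower cells were left out of the thinned shares, 405 of the Schwann-like and 1129 of the neuroblast-like cells. The ganglion-like shares at 500 UMIs, here and below, pool 2046 cells, of which 1392 came from sample #2. Intervals on shares and on UMI sums cover counting error only. In the pool of barcodes with at most 100 UMIs, which carries free RNA, Hspa1a stood at 28.1 to 290.1 CPM with a median of 91.9. The Schwann-like level lay above that of the own library's free RNA in 10 of 10 mice, the endothelial-like level in 8, the ganglion-like level in 0 and the neuroblast-like level in 0. Free RNA was estimated at a median of 1.17% of the UMIs of neuroblast-like and 1.84% of those of ganglion-like cells, and with it subtracted their mean Hspa1a levels were 18.9 and 32.3 CPM. The estimate is the lowest share given by marker lists of other classes, here always the macrophage list, so the true share may be larger. How much of the Hspa1a in these classes is free RNA was not tested. Schwann markers summed to a median of 5687 CPM in ganglion-like and 1272 CPM in neuroblast-like cells, against 127569 CPM in Schwann-like cells. The part of Schwann-like transcripts in the ganglion- and neuroblast-like Hspa1a levels was not tested either.

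In Schwann-like cells, other stress-responsive transcripts were found in a larger share of the cells with Hspa1a than of those without. Among the 413 Schwann-like cells with an Hspa1a UMI at 500 UMIs, 116 also had Dnajb1 (28.1%), whereas 67 of the 1407 others did (4.76%). Fos and Jun, immediate early genes that encode parts of the AP-1 factor, were found in 64.4% and 64.6% of the first and in 23.3% and 26.4% of the second. The constitutive Hspa8 was found in 62.2% against 43.4%. For Hspb1 the shares were 1.21% and 0.924%, and for Hsp90aa1 16.2% and 12.3%. Among neuroblast-like cells, Fos was found in 50% of the 16 with Hspa1a against 2.94% of the others, whereas Hsp90aa1 was found in 43.8% against 61.0%. These are descriptions over cells of 10 libraries, which are not replicates. The share of Schwann-like cells with Hspa1a ran from 2.30% (sample #6) to 57.1% (sample #2, 7 cells), so differences between mice enter the pooled shares. The summed level of 14 immediate early genes was 9368 ± 2543 CPM in Schwann-like, 9939 ± 7218 in macrophage-like, 6320 ± 2527 in endothelial-like and 5747 ± 3262 in myofibroblast-like cells, against 2483 ± 853 in ganglion-like and 1903 ± 391 in neuroblast-like cells. It was 5205 ± 5312 CPM in fibroblast-like cells, which held little Hspa1a. Whether the dissociation had a part in this was not tested.

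Hspa1b gave few UMIs. In Schwann-like cells of the 3-week Th-MYCN+/- mice 28 UMIs were counted, against 2919 of Hspa1a, and the level was 9.73 ± 9.21 CPM, with none in 3 of 10 mice. In no comparison did it pass the filter on low counts. The transcripts share 58.8% of the 50-base stretches of Hspa1a, but none of those in their last 500 bases, where 3′ libraries are read, so how reads were split between the pair is uncertain only for reads from further upstream.

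Dnajb1, a J-domain partner of HSP70 (chromosome 8, 83608193 to 83612653, plus strand), was likewise highest in Schwann-like cells, but its order over the other classes was not that of Hspa1a. Schwann-like cells held 453 ± 420 CPM, from 44.0 through a median of 303 to 1517, the highest value being that of sample #2, where 9 UMIs were counted in 12 cells. Without that sample the mean was 334 ± 202 CPM. Neuroblast-like cells held 50.8 ± 15.3 CPM and ganglion-like cells 111 ± 80.6, so that Schwann-like cells were higher in 10 and 9 of 10 mice. Endothelial-like cells, which were rich in Hspa1a, held only 83.6 ± 83.6 CPM of Dnajb1 and lay below the Schwann-like cells in 10 of 10 mice. Myofibroblast-like cells, also rich in Hspa1a, held 31.4 ± 53.3 CPM, with no Dnajb1 UMI in 6 of 9 mice, and macrophage-like cells 260.4 ± 522 CPM with a median of 96.6, the highest value being 1721 CPM in sample #3. Hsph1, the exchange factor of HSP70 (chromosome 5, 149614287 to 149636376, minus strand), was low in all 3 neural classes, at 52.2 ± 12.1 CPM in neuroblast-like, 63.9 ± 15.2 in ganglion-like and 41.0 ± 46.5 in Schwann-like cells, the last with 168.6 CPM in sample #2 and 26.8 ± 13.0 without it.

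Differences between classes were tested on UMIs summed per mouse and class with edgeR's quasi-likelihood test, with the mouse as a block and Benjamini-Hochberg adjustment over all genes tested. Because classes differ in most genes, a call is common: 68.4% of 5700 genes tested were called between neuroblast- and Schwann-like cells, 70.5% of 3187 between ganglion- and Schwann-like cells, 67.3% of 7798 between neuroblast- and ganglion-like cells and 57.3% of 1686 between endothelial- and Schwann-like cells. Of the members, 6 of 8 tested, 6 of 8, 5 of 9 and 6 of 8 were called, shares near those backgrounds, so that the direction and size of single members carry the description. By direction, 4 members were higher and 2 lower in neuroblast- than in Schwann-like cells, where 36.6% and 31.8% of all genes tested were. In ganglion- against Schwann-like cells 4 were higher and 2 lower (35.9% and 34.6% of all genes), in neuroblast- against ganglion-like cells 2 and 3 (34.6% and 32.7%) and in endothelial- against Schwann-like cells 3 and 3 (28.8% and 28.5%). Hspa1b was never tested, Hspb1 could not be tested between neuroblast- and Schwann-like cells, nor Hsph1 in 2 comparisons, because their sums were too low. Neuroblast-, ganglion-, Schwann- and endothelial-like sums enter more than 1 comparison, which are therefore not independent of each other.

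Hspa1a was lower in neuroblast-like than in Schwann-like cells by -7.01 ± 0.43 on the log2 scale (SE, adjusted p = 6.8e-13), the strongest contrast among the members tested there. It was lower in ganglion-like than in Schwann-like cells by -5.14 ± 0.18 (adjusted p = 4.3e-16) and lower in neuroblast-like than in ganglion-like cells by -1.91 ± 0.47 (adjusted p = 0.0012), the last in 7 of 10 mice. Ganglion-like cells also held more summed Schwann markers than neuroblast-like cells, and the part of Schwann-like transcripts in that last difference was not tested. Endothelial-like cells were lower than Schwann-like cells by -1.47 ± 0.32 (adjusted p = 0.00047), in 9 of 10 mice. Dnajb1 moved in the same direction in each of these, with log2 differences of -2.93 ± 0.23, -2.07 ± 0.27, -0.93 ± 0.20 and -2.13 ± 0.32, and all 4 were called. Hsph1 did not pass the threshold in either comparison of classes in which it was tested, with log2 differences of -0.35 ± 0.16 between neuroblast- and ganglion-like cells (adjusted p = 0.062) and 0.48 ± 0.24 between neuroblast- and Schwann-like cells (adjusted p = 0.078). The latter passed with 1 sample left out, at 0.74 without sample #2 and 0.63 without sample #5. The same difference also passed with DESeq2 in place of edgeR (0.74, adjusted p = 0.0075) and without the filter on low counts (0.94).

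**Figure D2:**
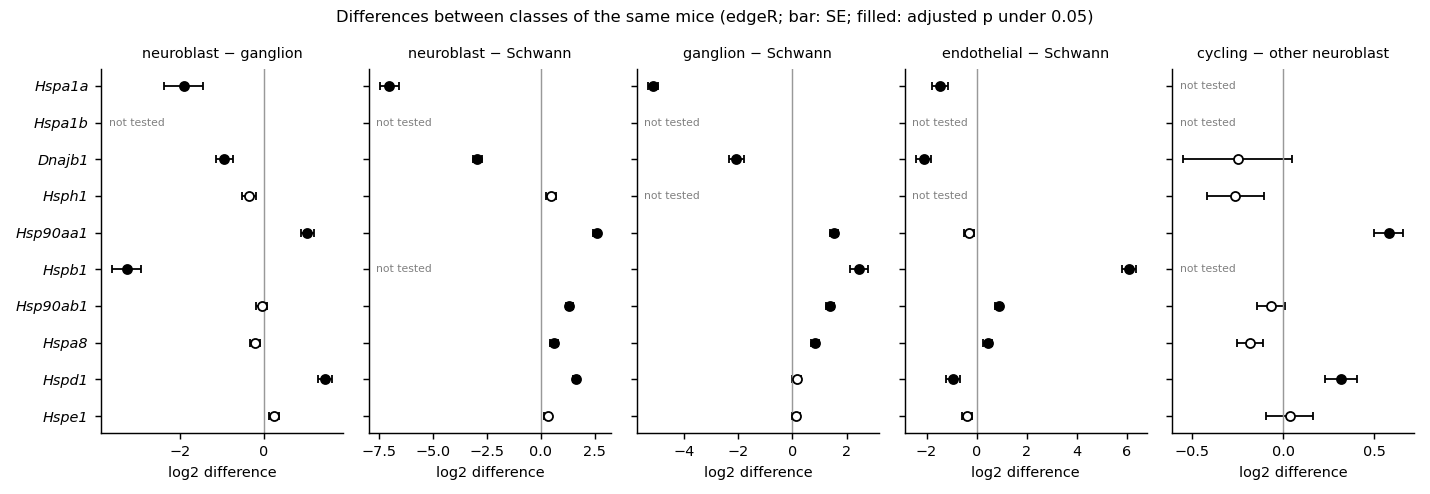
Log2 difference of each member between classes of the same mice with its standard error, from edgeR. Each panel is 1 comparison with its own axis, filled points have an adjusted p under 0.05, and members whose sums were too low are marked as not tested. The stress-inducible Hspa1a and Dnajb1 lie left of 0 in the first 4 panels, whereas Hsp90aa1 lies right of 0 in the first 3 and in the last.

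The HSP90 genes showed another order. Hsp90aa1, the inducible cytosolic HSP90 (chromosome 12, 110690605 to 110702728, minus strand), was highest in neuroblast-like cells, at 1933 ± 363 CPM. Of the 10 mice, 9 lay between 1891 and 2241 CPM and sample #2 at 953, and without it the mean was 2042 ± 121. The level fell to 942 ± 184 CPM in ganglion-like, 297 ± 99.2 in Schwann-like and 234 ± 58.2 in endothelial-like cells. Neuroblast- and Schwann-like ranges did not overlap, nor did ganglion- and Schwann-like ranges, whereas Schwann- and endothelial-like cells overlapped and differed by -0.30 ± 0.19 on the log2 scale (adjusted p = 0.19; without sample #8, -0.50, adjusted p = 0.032). The log2 difference was 2.58 ± 0.17 between neuroblast- and Schwann-like cells (adjusted p = 1.6e-12), 1.54 ± 0.14 between ganglion- and Schwann-like cells (adjusted p = 5.5e-10) and 1.05 ± 0.16 between neuroblast- and ganglion-like cells (adjusted p = 5.1e-06, 9 of 10 mice). At 500 UMIs, 60.9% of neuroblast-like, 37.4% of ganglion-like and 13.2% of Schwann-like cells had an Hsp90aa1 UMI.

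Hsp90ab1, its constitutive copy (chromosome 17, 45567775 to 45573271, minus strand), did not separate neuroblast- from ganglion-like cells. The level was 1884 ± 415 CPM in the first and 1953 ± 310 in the second, and the log2 difference of -0.048 ± 0.14 did not pass the threshold (adjusted p = 0.77) and changed sign when sample #2, #8 or #9 was left out (0.039, 0.026 and 0.014). Both lay above Schwann-like cells (666 ± 133 CPM), by 1.32 ± 0.16 and 1.39 ± 0.13 on the log2 scale (adjusted p = 8.6e-08 and 2.0e-09), in 10 of 10 mice. Endothelial-like cells held 1161 ± 246 CPM, also above Schwann-like cells in 10 of 10 mice (0.87 ± 0.14, adjusted p = 9.9e-06).

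The ratio of Hsp90aa1 to Hsp90ab1 UMIs therefore differed by class. Since 3′ capture may differ between genes, the ratio is set side by side between classes only. It was 1.04 ± 0.12 in neuroblast-like cells, 0.486 ± 0.089 in ganglion-like, 0.446 ± 0.119 in Schwann-like and 0.207 ± 0.049 in endothelial-like cells (n = 10 each). In Schwann- and endothelial-like cells each of the 2 genes lay above its level in the own library's free RNA in 0 of 10 mice. The part of free RNA in these ratios was not tested. The neuroblast-like ratio, from 0.81 to 1.203, lay above every ganglion- and Schwann-like ratio, and it was 0.906 in the 6-week mouse. The ratio of Hspa1a plus Hspa1b to Hspa8, the inducible against the constitutive HSP70, ran the other way, at 0.718 ± 0.396 in Schwann-like, 0.261 ± 0.241 in endothelial-like, 0.0108 ± 0.0060 in ganglion-like and 0.0083 ± 0.0137 in neuroblast-like cells, the last with a median of 0.0020 and a mean of 0.0049 without sample #7, whose value rests on the single cell named above. It ranged from 0.0968 (sample #6) to 1.5 (sample #2) in Schwann-like cells.

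**Figure D3:**
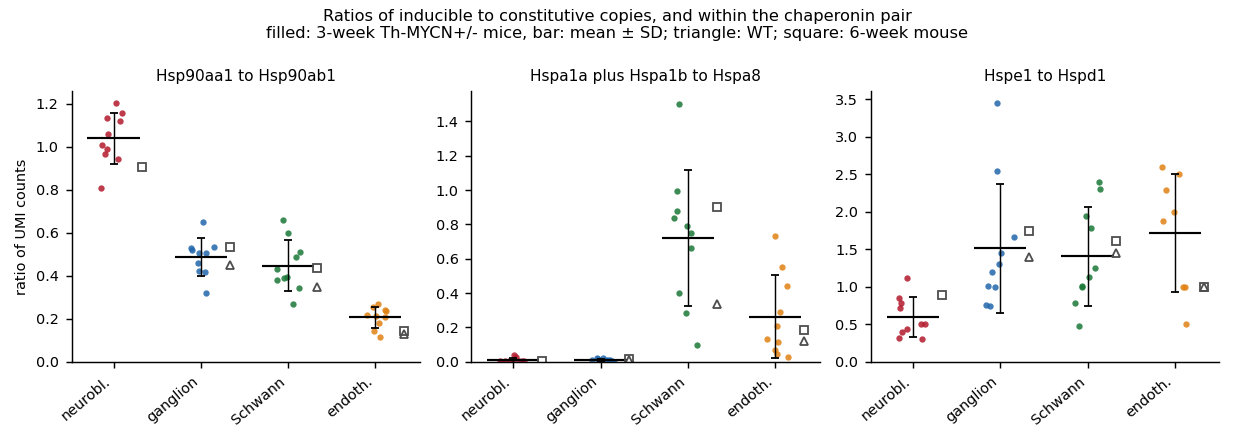
Ratio of UMI counts of inducible to constitutive copies of HSP90 and HSP70, and of Hspe1 to Hspd1, per mouse and class (linear axes from 0, own scale per panel). Filled points are the 3-week Th-MYCN+/- mice with mean ± SD, triangles the WT and squares the 6-week mouse, and a mouse without an Hspd1 UMI in endothelial-like cells has no Hspe1 to Hspd1 ratio. The HSP90 ratio is highest in neuroblast-like cells, whereas the HSP70 ratio is highest in Schwann-like cells.

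Hspa8, the constitutive HSP70 (chromosome 9, 40800984 to 40810087, plus strand), was abundant in every class. It stood at 2679 ± 614 CPM in neuroblast-like, 3216 ± 996 in ganglion-like, 1511 ± 375 in Schwann-like and 2224 ± 1554 in endothelial-like cells. Neuroblast- and ganglion-like cells lay above Schwann-like cells in 10 of 10 mice, by 0.62 ± 0.17 and 0.84 ± 0.16 on the log2 scale (adjusted p = 0.0029 and 5.0e-05), and did not differ from each other past the threshold (-0.20 ± 0.13, adjusted p = 0.17), although ganglion-like cells were higher in 9 of 10 mice. The endothelial-like mean was raised by sample #7 at 6471 CPM, where 126 of 157 UMIs (80.3%) came from 1 cell. Endothelial- and Schwann-like cells differed by 0.44 ± 0.19 (adjusted p = 0.048), a call that was lost with sample #3, #6, #7, #8, #9 or #10 left out (0.47, 0.31, 0.25, 0.39, 0.45 and 0.50). In the pool of free RNA Hspa8 stood at a median of 3273 CPM.

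Hspb1, the small heat shock protein also called HSP27 in human (chromosome 5, 135887919 to 135889563, plus strand), had an order of its own. It was highest in endothelial-like cells, at 1375 ± 512 CPM, from 690.1 through a median of 1381 to 2500.2. In Schwann-like cells it stood at 18.6 ± 15.6 CPM and in neuroblast-like cells at 21.3 ± 34.1, in which sample #2 held 113 CPM and the others 0.750 to 34.1. The endothelial-like values lay above both without overlap, and exceeded the Schwann-like ones by 6.07 ± 0.27 on the log2 scale (adjusted p = 2.0e-14). Myofibroblast-like cells came next with 625.4 ± 501 CPM (n = 9), whereas no Hspb1 UMI was found in the 167 macrophage-like cells of these mice. At 500 UMIs the count was 0 of 130 such cells, a count that leaves room for a share of up to 2.31% with a UMI. Between those lay ganglion-like cells with 127 ± 72.8 CPM, higher than Schwann-like cells in 9 of 10 mice (2.46 ± 0.33, adjusted p = 5.8e-07) and higher than neuroblast-like cells in 10 of 10 (a neuroblast minus ganglion difference of -3.27 ± 0.34, adjusted p = 3.5e-08). At 500 UMIs the share of cells with Hspb1 was 46.2% in endothelial-like, 9.34% in ganglion-like, 0.989% in Schwann-like and 0.134% in neuroblast-like cells. By mouse, the ganglion-like share was 9.84% in sample #2, which gave 1392 of the cells, and at most 13.8% (sample #4). It was 0% in samples #1, #3, #6, #7 and #8, which held 17, 25, 17, 29 and 23 such cells. The classes with most Hspb1 and most Hspa1a thus differed, and the level of Hspb1 in free RNA (median 158 CPM) lay above the Schwann-, neuroblast- and ganglion-like means. The ganglion-like level lay above that of the own library's free RNA in 3 of 10 mice, and the endothelial-like level in 10 of 10.

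The 2 genes of the mitochondrial chaperonin, which share their upstream stretch, differed in their levels across classes. Hspd1 (chromosome 1, 55077835 to 55088243, minus strand), which builds the barrel, stood at 533 ± 98.4 CPM in neuroblast-like cells, from 378 (sample #2) through a median of 525 to 675. This lay above every ganglion-like value (192 ± 62.3 CPM, at most 284) and every Schwann-like value (147 ± 33.8 CPM, at most 185). The log2 differences were 1.47 ± 0.18 (adjusted p = 2.6e-07) and 1.62 ± 0.15 (adjusted p = 1.4e-09), while ganglion- and Schwann-like cells did not differ past the threshold (0.16 ± 0.17, adjusted p = 0.44). The last difference passed with free RNA subtracted (0.56) and without the filter on low counts (0.54). In endothelial-like cells Hspd1 was lower, at 79.7 ± 67.8 CPM (-0.94 ± 0.28 against Schwann-like cells, adjusted p = 0.0070).

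Hspe1, the lid of the barrel (chromosome 1, 55088132 to 55091307, plus strand), was more even, at 294 ± 77.6 CPM in neuroblast-like, 248 ± 56.8 in ganglion-like, 190.1 ± 61.6 in Schwann-like and 168 ± 114 in endothelial-like cells. None of its 4 differences between these classes passed the threshold, although neuroblast-like cells were higher than Schwann-like cells in 9 of 10 mice (0.32 ± 0.15, adjusted p = 0.066). With 1 sample left out this difference passed without sample #2 (0.50) or #6 (0.36), and that between neuroblast- and ganglion-like cells (0.25 ± 0.12, adjusted p = 0.085) without sample #6 (0.32), #7 (0.29) or #8 (0.32). With DESeq2 in place of edgeR all 4 differences passed. They were 0.35 between neuroblast- and ganglion-like, 0.55 between neuroblast- and Schwann-like, 0.27 between ganglion- and Schwann-like and -0.51 between endothelial- and Schwann-like cells. The neuroblast- against Schwann-like difference also passed with free RNA subtracted (0.49), so these calls depended on the method. The ratio of Hspe1 to Hspd1 was 0.592 ± 0.267 in neuroblast-like cells, 1.51 ± 0.86 in ganglion-like and 1.40 ± 0.66 in Schwann-like cells, and was lower in neuroblast-like than in ganglion-like cells in 10 of 10 mice.

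Within neuroblast-like cells, those called in S or G2/M phase were set against those called in G1. Only cells with at least 1000 UMIs were used, none of the genes behind the calls was a member, and sample #2 had too few cells, which left 9 mice. Here 38.1% of 6317 genes tested were called, and 2 of 7 members, both higher (18.3% of all genes were higher and 19.8% lower). Hsp90aa1 was higher in the S or G2/M cells, with 2224 against 1470 CPM (log2 difference 0.58 ± 0.08, adjusted p = 1.9e-05), in 9 of 9 mice. Hspd1 was also higher, with 582 against 467 CPM (0.32 ± 0.09, adjusted p = 0.0097), in 9 of 9 mice. For Hsp90ab1, Hspa8 and Hspe1 the log2 differences were -0.066 ± 0.076, -0.18 ± 0.07 and 0.038 ± 0.129, with adjusted p-values of 0.53, 0.052 and 0.86. For Dnajb1 and Hsph1 they were -0.25 ± 0.30 and -0.26 ± 0.16, with adjusted p-values of 0.54 and 0.20. The Hspa8 difference passed without sample #3 (-0.21) or #6 (-0.20), and the sign of Hspe1 turned without sample #5 (-0.030) or #7 (-0.00026) and that of Hsp90ab1 without sample #8 (0.0057).

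The other chaperone genes were read as lists drawn up by family. TRiC, the chaperonin of the cytosol, is built of 8 subunits encoded by Tcp1 and the Cct genes. All 8 were higher in neuroblast-like than in ganglion-like cells, with a median log2 difference of 1.09 against 0.043 over all genes tested, and all 8 were higher than in Schwann-like cells, with a median of 1.83 against 0.088. Of all genes tested, 34.6% were higher in the first comparison and 36.6% in the second. Among them Cct6a differed by 1.70 and 2.23 on the log2 scale (adjusted p = 6.0e-08 and 5.7e-12). In S or G2/M against G1 neuroblast-like cells, 7 of 8 were higher (18.3% of all genes tested) and 1 did not pass the threshold, with a median of 0.28. Between ganglion- and Schwann-like cells 7 of 8 were higher in the first (35.9% of all genes tested), with a median of 0.55. Between endothelial- and Schwann-like cells 2 were higher, 1 was lower and 4 of the 7 tested did not pass (28.8% of all genes higher and 28.5% lower).

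The small heat shock proteins other than Hspb1 gave large differences. Of 3 tested, all were lower in neuroblast-like than in Schwann-like cells, with a median log2 difference of -7.37, where 31.8% of all genes tested were lower. Cryab, the lens protein alpha B-crystallin that also serves as a small heat shock protein in glia and muscle, differed by -8.00 (adjusted p = 1.5e-15). Between ganglion- and Schwann-like cells Cryab was lower (-5.19) but Hspb8, which works with the co-chaperone Bag3, was higher in ganglion-like cells (4.94, adjusted p = 4.3e-13). Bag3 itself was lower in neuroblast-like than in ganglion-like (-1.64, adjusted p = 8.9e-07) and Schwann-like cells (-1.14, adjusted p = 0.00039).

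Among the co-chaperones, 11 were higher and 2 lower of 22 tested in neuroblast-like against Schwann-like cells, where 36.6% and 31.8% of all genes tested were. Fkbp4 and Ppid, both partners of HSP90, were higher there by 1.70 and 1.52 (adjusted p = 2.1e-10 and 2.0e-07). Hspa9, the HSP70 of the mitochondrion, was higher in neuroblast-like than in ganglion-like and Schwann-like cells, by 1.23 and 0.79 (adjusted p = 2.1e-06 and 6.5e-05). Of the chaperones of the endoplasmic reticulum, 7 were lower and 2 higher of 10 tested in neuroblast-like against Schwann-like cells (31.8% and 36.6% of all genes tested). Serpinh1, the collagen chaperone, was lower there by -7.75 (adjusted p = 5.1e-16). Over all 92 of these genes, 33 were higher and 22 lower of 77 tested in that comparison, beside shares of 36.6% and 31.8% over all genes tested. In neuroblast-like against ganglion-like cells 38 were higher and 16 lower of 83 tested, where 34.6% and 32.7% of all genes tested were. The 13 immediate early genes tested were all lower in neuroblast-like than in Schwann-like cells, with a median of -4.21, where 31.8% of all genes tested were lower.

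Within Schwann-like cells the spread between mice was larger for Hspa1a and Dnajb1 than for the constitutive members. On log2(CPM + 10) the SD over the 10 3-week Th-MYCN+/- mice was 1.26 for Hspa1a and 1.25 for Dnajb1, against 0.294 for Hsp90ab1, 0.351 for Hspa8 and 0.326 for Hspd1. Among 3204 genes with a mean of at least 50 CPM, Hspa1a lay at percentile 85.7 of this spread and Hsp90ab1 at percentile 6.93. Without the 12 Schwann-like cells of sample #2 these percentiles were 98.6 and 19.6. With a pseudocount of 1 in place of 10, Hspa1a lay at percentile 54.5 with and 97.8 without sample #2. In neuroblast-like cells Hsp90aa1 varied with an SD of 0.354, at percentile 65.4 of 3214 genes. Without sample #2 the SD was 0.084, at percentile 0.372 of the genes with a mean of at least 50 CPM in the remaining mice. Genes of low level carry more counting error, so these percentiles also depend on level. In ganglion-like cells Dnajb1 (SD 0.838) and Hspb1 (0.801) lay at percentiles 94.7 and 93.4, and Hsp90ab1 (0.235) at percentile 7.52.

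Sample #6 lay at the low end in several classes. Its Hspa1a level was the lowest in Schwann-like cells, with 9 UMIs and 99.1 CPM against 414 for the next, in ganglion-like cells, with no UMI against 18.5 CPM for the next, in macrophage-like cells, with no UMI against 318, and in myofibroblast-like cells, with 140.1 CPM against 333. Dnajb1 was also lowest there in Schwann-like cells, at 44.0 CPM against 206, and in ganglion-like cells, at 33.3 against 55.4. The summed level of immediate early genes in its Schwann-like cells, 7399 CPM, lay within the range of the other mice. The genes whose level over the 10 mice was most like that of Hspa1a in Schwann-like cells, by Pearson correlation of log2 levels among 3203 genes, were Dusp1 (0.94), Rhoc (0.93), 4930453N24Rik (0.91), Ahsa1 (0.88) and Ccdc90b (0.87). In neuroblast-like cells, those most like Hspd1 were Strbp (0.96), Tcp1 (0.95), Aifm1 (0.95), Nfe2l3 (0.94) and Eif2b1 (0.94). The points are 10 libraries that differ in depth and in number of cells, and a correlation over so few is a description.

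**Figure D4:**
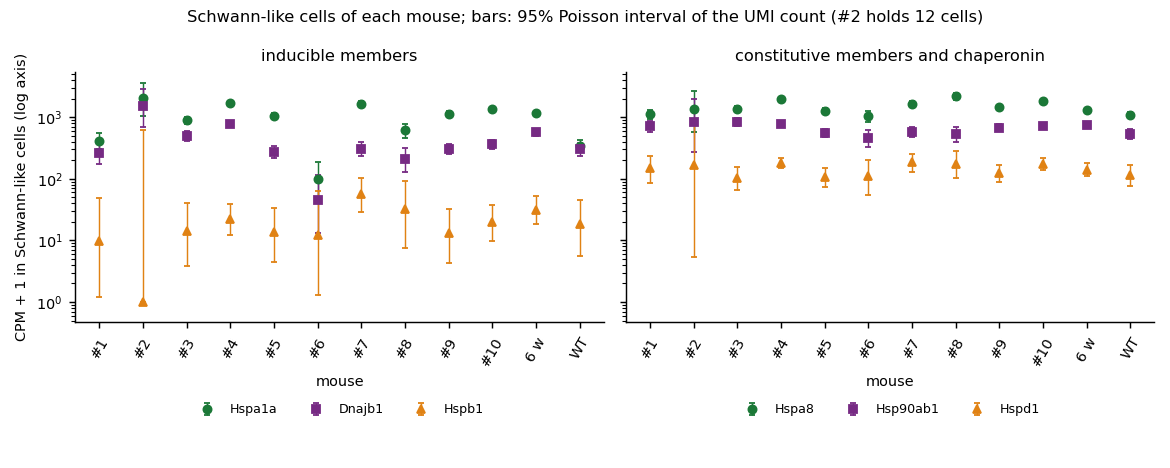
Level (CPM + 1, log axis) of 3 inducible members (left) and of 2 constitutive members and Hspd1 (right) in Schwann-like cells of each mouse, the 10 3-week Th-MYCN+/- mice first, with exact 95% Poisson intervals of the UMI count as bars. Hspa1a and Dnajb1 spread widely with the lowest points in sample #6, whereas Hspa8, Hsp90ab1 and Hspd1 stay close together, and sample #2 has wide bars from its 12 cells.

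The WT and the 6-week mouse can be placed only beside the 3-week Th-MYCN+/- mice. In Schwann-like cells Hspa1a stood at 342 CPM (exact Poisson 95% interval 271 to 426) in the WT mouse and at 1165 (1071 to 1264) in the 6-week mouse, both within the range of the 10 mice. Only sample #6 (99.1 CPM from 9 UMIs) lay below the WT value, and the next lowest was 414 CPM. In myofibroblast-like cells the WT value of 4597 CPM (3576 to 5817, 69 UMIs in 29 cells) and the 6-week value of 3558 (2595 to 4761, 45 UMIs in 15 cells) lay above all 9 values of the 3-week Th-MYCN+/- mice, of which 2179 was the highest. In the WT mouse 48 of the 69 UMIs came from 1 cell, and without it the value was 1469 CPM, within their range, whereas the 6-week value without its highest cell was 2997 CPM. In macrophage-like cells the WT value was 3531 CPM (2382 to 5040.2, 30 UMIs in 10 cells), also above the highest of the 10 mice, 2403. In neuroblast-like cells of the 6-week mouse Hsp90aa1 stood at 2073 CPM (2016 to 2131) and Hspd1 at 504 (476 to 533), inside the ranges of the 3-week mice, whereas Hspe1 stood at 446 (419.5 to 473), above the highest of them, 424. Hspb1 was at 107 CPM there (94.4 to 121), with 29 of 376 cells holding a UMI, against 113 CPM in sample #2 and at most 34.1 in the other 3-week Th-MYCN+/- mice. Ganglion markers summed to 13908.5 CPM in these 6-week cells, against 1674 to 10284 in the 3-week Th-MYCN+/- mice. Neuroblast markers summed to 19013 CPM, against 20848 to 27912. The part of ganglion-like transcripts in the 6-week levels was not tested. Hspa8 in ganglion-like cells was at 1517 CPM (1375 to 1669) in the WT mouse, near the lowest of the 10 mice, 1391. These differences have no replicate check.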

How the data were processed

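The assay was droplet scRNA-seq of whole ganglia, 1 library per mouse, 12 in all. The authors ran Cell Ranger (3.0.2 per the file headers) on mm10 plus a human MYCN sequence and deposited raw UMI counts per gene and barcode. Which annotation release they used was not given in the sources used here, and positions were looked up in GRCm38 through the gene identifiers. The members, lists and tests were chosen with earlier results of these data known.

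Cells were called with an implementation of EmptyDrops (empty pool of at most 100 UMIs, 10000 draws, FDR 0.01) and kept with at least 200 genes, at most 10% mitochondrial and at most 60% ribosomal UMIs. After SCTransform in Seurat 5.3.0 they were clustered (2000 variable genes, 30 components, resolution 0.5) without 116 genes, the members among them. A cluster was named when at least 50% of a marker list, and at least 3 markers, lay 1.5-fold above the other cells, a score set after the clusters had been seen. The names are therefore rebuilt. Scrublet marked 0.408% of the cells. How many doublets it missed was not tested, and no doublets were removed.

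Levels are UMIs per 1000000 UMIs of the class in a library. Sums of at least 5 cells per mouse and class were filtered (filterByExpr), scaled (TMM) and tested with edgeR 4.0.16 at an adjusted p of 0.05, with the mouse as block, since both sums came from the same animal. Deviations of both sums from their class means correlated at -0.013 to 0.377 for neuroblast- against ganglion-like cells and above 0 in every mouse in the other comparisons. On simulated data with 200 genes changed by 1.5 (log2), 177 of 180 tested were recovered with 9 false calls for neuroblast- against ganglion-like cells. False calls in the other comparisons were between 5 and 14. The simulation left most genes unchanged and held no mouse effect, whereas 57.3% to 70.5% of genes were called between the real classes. It therefore cannot check the scaling or the block under those conditions. The label replicates were taken as mice. The genes named are all members and, from each list, at most 2 per direction with the largest difference past the threshold. The alternatives were DESeq2 1.42.0, no filter, no block, at least 10 cells, stricter cell filters, subtraction of free RNA, removal of the highest 5% of Scrublet scores, clustering of log-normalized counts, a pseudocount of 1 in place of 10 and no thinning.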

Additional observations from a re-analysis of the deposited data

Results flagged for a closer look

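In each of the 7 named classes, the lowest or highest 3-week Th-MYCN+/- sample of a member was compared with the range of the group where at least 5 mice had a UMI, and 13 of 59 groups held a sample far from the others. Sample #2 gave 6 of them. The cut-off flags about 1 in 20 groups only for independent, normally distributed values. Several of these levels rest on few UMIs and the groups share samples, so the count of flags cannot be set against that rate. In its Schwann-like cells Dnajb1 stood at 1517 CPM (nearest 767) and Hsph1 at 168.6 CPM (nearest 44.8), from 12 cells. In its neuroblast-like cells Hsp90aa1 stood at 953 CPM (nearest 1891), Hsp90ab1 at 899.9 CPM (nearest 1676) and Hspb1 at 113 CPM (nearest 34.1), and the summed level of Schwann markers in those cells was 7146 CPM, the highest of the 10 mice, against a median of 1272. The part of those other transcripts in the 3 values was not tested. Dnajb1 stood at 284 CPM in endothelial-like cells of sample #3 (nearest 136). Hsph1 stood at 61.0 CPM in those of sample #1 (nearest 27.2). Hspa8 stood at 6471 CPM in those of sample #7 (nearest 2259), where 80.3% of its UMIs came from 1 cell. In small classes, Hspa1a stood at 2179 CPM in myofibroblast-like cells of sample #3 (nearest 978) and at 684 CPM in fibroblast-like cells of sample #4 (nearest 225), the latter from 1 cell. In macrophage-like cells Dnajb1 stood at 1721 CPM in sample #3 (nearest 289), where 21 of 43 UMIs came from 1 cell, Hspe1 at 779 CPM in sample #6 (nearest 407), where 37 of 62 did, and Hsp90aa1 at 637 CPM in sample #2 (nearest 400.3), from 2 UMIs.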

How the results depend on the processing

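Of 25 member differences past the threshold, 23 stayed there under every alternative run. The exceptions were Hspa8 and Hsp90ab1 between endothelial- and Schwann-like cells, the latter with 0.50 without the filter. Of the 15 others, 9 passed under at least 1 alternative. The cause of these moves was not tested.

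Without the filter on low counts more genes were tested and called, 8184 of 18939 between neuroblast- and Schwann-like cells, 7058 of 17902 between ganglion- and Schwann-like cells, 3521 of 15997 between endothelial- and Schwann-like cells and 3822 of 18078 between S or G2/M and G1 cells. Signs turned only for differences not past the threshold. Hsp90ab1 between neuroblast- and ganglion-like cells was 0.045 with DESeq2 and 0.067 without the filter, and -0.11 to 0.039 with single samples left out. In S or G2/M against G1 cells, Hsp90ab1 was 0.080 without the filter and -0.11 to 0.0057 with single samples left out, Hspe1 was -0.030 to 0.15 with single samples left out, and Dnajb1 was 0.049 without the highest Scrublet scores. Without the replicate block, 5299, 3893, 2133, 959 and 2162 genes were called in the 5 comparisons, and the only member call lost was Hspa8 between endothelial- and Schwann-like cells (0.56, adjusted p = 0.060).

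Subtraction of free RNA lowered mean levels past 1 SD for Hsp90aa1 in Schwann-like (171 CPM) and endothelial-like cells (157 CPM), Hsp90ab1 in Schwann-like (490.4 CPM) and Hspd1 in Schwann-like cells (96.6 CPM), and left the other levels within 1 SD. The share subtracted was the lowest that the marker lists gave. Depth limits Hspa1b, Hsph1 and the small classes, where a few UMIs set a level.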

Other observations

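Of the cells that stayed unnamed, 83 formed 1 cluster (median 801 UMIs per cell) in the 3-week Th-MYCN+/- mice. In their summed counts Hspa1a stood at 498 CPM (40 UMIs) and Hspa1b at 87.2 CPM (7 UMIs), whereas no Hspb1 UMI was counted. These cells entered no comparison.

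Within the neuroblast-like class, the summed level of Hspa1a was 43.5 CPM (78 UMIs) in the shallowest cluster, of 2086 cells with a median of 492 UMIs, and 2.26, 2.28 and 5.14 CPM in the 3 deeper clusters, of 252, 1207 and 1302 cells. Hsp90aa1 in the same 4 clusters lay between 1818 and 2178 CPM. A single cell of sample #7 gave 56 of the 78 UMIs in the shallowest cluster, which without it stood at 12.3 CPM.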
